A study of Homo sapiens with 9 samples.

Results

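The cell cycle genes described here are 6: CDKN1A, GADD45A and GADD45B, which restrain the cycle, and CCND1, TOP2A and CDC20, which serve its forward steps. They were taken as 1 probe each of an Illumina bead array, by probe identifier (ILMN_1784602, ILMN_1694075, ILMN_1718977, ILMN_1688480, ILMN_1686097 and ILMN_1663390 in that order) from 22184 probes, of which those with a gene name covered 16578 genes. The platform annotation paired all 6 identifiers with the genes named. RNA came from SH-SY5Y, a cloned human neuroblastoma line, so all groups share 1 genetic background. The groups were cells given thapsigargin, which blocks the SERCA calcium pump of the endoplasmic reticulum (ER); cells given tunicamycin, which blocks N-linked glycosylation; and cells given the vehicle DMSO. Each group had 3 labelled samples, while the sources used here give no dose or treatment time and do not say whether replicates were separate cultures; p-values thus cover the spread among arrays, which may be technical.

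Cyclin D1, the product of CCND1, activates CDK4 and CDK6 in G1 and so starts the release of E2F factors from RB proteins. The CDK inhibitor p21, the product of CDKN1A, binds cyclin-CDK complexes and PCNA and is the classic transcriptional target of p53. GADD45 proteins are small stress-induced proteins that bind PCNA, p21 and CDK1 complexes. TOP2A untangles sister chromatids before anaphase, and CDC20 activates the anaphase-promoting complex that ends mitosis. In mouse fibroblasts ER stress is known to slow translation through PERK and to lower cyclin D1 protein.

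Of the 9 deposited signal columns, 5 held single arrays (thapsigargin replicates 1 and 3, tunicamycin replicates 1 and 2, DMSO replicate 1) and 4 were weighted means that contain other columns. The comparisons use the 5 single arrays, with a single DMSO array whose spread was taken to equal that of the drug groups. Subtraction gave back 2 further arrays, called recovered arrays here: 1 from DMSO replicate 3, and 1 from tunicamycin replicate 3 that lay beside DMSO. On the 5 arrays, between 12494 and 12737 probes had a detection p-value below 0.05, and mean intensity ranged from 318 to 410; the number of arrays limits the precision. All 10 listed ER stress response genes rose with each drug, with a median log2 change of 2.12 with thapsigargin and 2.49 with tunicamycin. Of all probes tested, 12.2% rose with thapsigargin and 17.2% with tunicamycin. None of the 10 passed the test with both recovered arrays added, and SEL1L was not detected in DMSO. Of 11 sympathetic neuroblast markers on the array, 10 were detected on all 5 arrays, while HAND2 was detected on none. Of 9 stromal, glial and blood cell markers, 4 were detected on all 5 arrays and 2, S100B and CD68, on none. The summed background-corrected intensity of those 9 markers was 584 and 633 with thapsigargin and 515 and 532 with tunicamycin, against 785 in DMSO. Among the 6 of them tested, PDGFRB weighed most in this sum. Its log2 intensity was 8.13 and 8.20 with thapsigargin and 7.87 and 7.84 with tunicamycin, against 8.78 in DMSO. The next brightest, COL1A1, was at 6.07 in DMSO. The sum of the 11 neuroblast markers was lower with the drugs as well. It was 34573 and 32460 with thapsigargin and 30007 and 28806 with tunicamycin, against 38577 in DMSO. The part of these shifts in the results below was not tested.

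The question of the first comparisons was which of the 6 genes changed with each drug. CDKN1A rose with both drugs, CCND1 and TOP2A fell with both, and GADD45A rose with tunicamycin. CDC20 did not pass the test with either drug, and GADD45B was not above background on any array. Both comparisons share the 1 DMSO array. Levels are log2 intensities after background correction and quantile normalization (neqc), changes are differences of these levels, and a call is an adjusted p below 0.05 by limma with Benjamini-Hochberg adjustment over 12989 probes. With thapsigargin 3 of the 5 detected members were called, against 25.6% of all probes tested (12.2% higher, 13.3% lower). With tunicamycin 4 were called, against 36.0% of all probes (17.2% higher, 18.8% lower). With both recovered arrays added, none of the 5 was called by limma with either drug, and CDKN1A (limma adjusted p = 0.249 and 0.31) was then at a log2 change of 1.63 with thapsigargin and 1.67 with tunicamycin; if the recovered DMSO array alone stood for DMSO, the same 3 and 4 members were called. The split for thapsigargin, 1590 rises and 1733 falls, was 1109 and 2124 if median centring replaced quantile normalization.

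**Figure D1:**
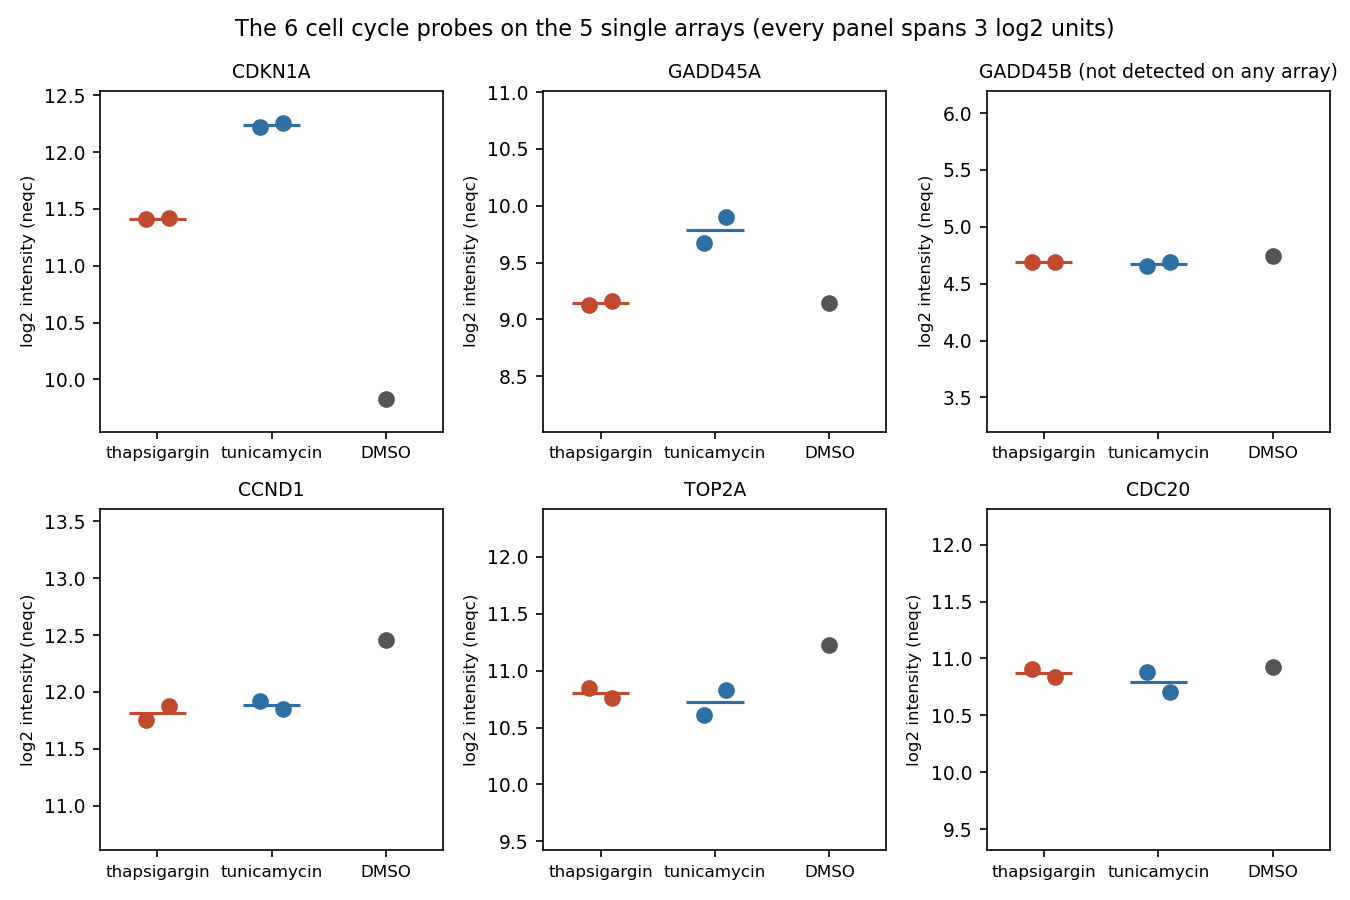
Log2 intensity after neqc (y axis) of each of the 6 probes on the thapsigargin, tunicamycin and DMSO arrays (x axis); points are single arrays, lines are means of 2 arrays, and every panel spans 3 log2 units. CDKN1A stands at 11.42 with thapsigargin and 12.24 with tunicamycin, against 9.83 in DMSO, while CDC20 stays between 10.70 and 10.92.

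Among the brakes, CDKN1A (p21; GRCh38.p14 chromosome 6, 36676463 to 36687332) changed most. Its log2 intensity was 11.41 and 11.42 on the thapsigargin arrays and 12.22 and 12.25 on the tunicamycin arrays, against 9.83 on the DMSO array. The drug arrays did not overlap with DMSO or with each other. The rise was 3.01-fold with thapsigargin, or 1.59 ± 0.088 on the log2 scale (SE, limma adjusted p = 6.32e-05), and 5.32-fold with tunicamycin, or 2.41 ± 0.088 (SE, limma adjusted p = 7.53e-06). By size of change it ranked 70 of 12989 with thapsigargin and 29 with tunicamycin. Before normalization the intensities were 2941 and 2350 with thapsigargin and 4383 and 4802 with tunicamycin, against 1061 in DMSO, so the rise was present in the values as deposited. The recovered DMSO array had 1046. A second CDKN1A probe, ILMN_1787212, which the annotation assigns to another transcript accession, was not detected on any of the 5 arrays and gives no level.

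GADD45A (chromosome 1, 67685201 to 67688334) responded to 1 drug. Its log2 intensity was 9.13 and 9.16 with thapsigargin and 9.67 and 9.90 with tunicamycin, against 9.15 in DMSO. Both tunicamycin arrays lay above the other 3, and the thapsigargin arrays lay on either side of DMSO. With tunicamycin it rose by 0.64 on the log2 scale, 1.55-fold, with an SE of 0.113 (limma adjusted p = 0.00455). With thapsigargin the log2 change was -0.0044 with a 95% interval from -0.27 to 0.26 (limma adjusted p = 0.982), so a change of the size seen with tunicamycin lay outside the interval. Its tunicamycin arrays were 0.22 apart, the widest gap between arrays of 1 drug among the 6 probes.

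GADD45B (chromosome 19, 2476127 to 2478257) had intensities of 58.5 and 52.4 with thapsigargin and 53.4 and 58.8 with tunicamycin, against 60.9 in DMSO. Its detection p-values lay between 0.295 and 0.451 on the 5 arrays, so the probe was not well above background in any group. It was left out of the tests, and no fold is given. The remaining family member, GADD45G, was not well above background in DMSO (detection p-value 0.508), was detected on 1 of 2 thapsigargin arrays and was detected on both tunicamycin arrays. Against DMSO it therefore has a lower bound alone, the mean of the brighter group over the lowest signal detected on the dimmer array. GADD45G entered the tests only through the tunicamycin arrays, where it was highest, so its p-values add no independent support. It was at least 1.4-fold higher with tunicamycin (limma adjusted p = 0.0023). With thapsigargin the bound was 1.03-fold (limma adjusted p = 0.0345), and the call was lost without either thapsigargin array, against the recovered DMSO array alone and with no filter on detection.

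Among the drivers, CCND1 (cyclin D1; chromosome 11, 69641156 to 69654474) fell with both drugs. Its log2 intensity was 11.76 and 11.88 with thapsigargin and 11.92 and 11.85 with tunicamycin, against 12.46 in DMSO. The values of the drugs overlapped with each other, and all 4 lay below DMSO. CCND1 fell by 0.64 in log2 units with thapsigargin, 1.56-fold, with an SE of 0.098 (limma adjusted p = 0.00361). It fell by 0.57 with tunicamycin, 1.49-fold, with the same SE (limma adjusted p = 0.00382). The recovered DMSO array stood 0.14 above DMSO replicate 1, and with it as the only DMSO array the changes were -0.77 with thapsigargin and -0.71 with tunicamycin.

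TOP2A and CDC20 both act late in the cycle. CCAAT boxes and the cell cycle homology region (CHR) are promoter elements known from genes that peak in G2 and mitosis. To set these 2 beside the strongest riser, the 250 bases before the start that RefSeq's promoter table lists (GRCh38.p14) are shown 5′ to 3′ on the gene's strand for TOP2A (chr17:40417897-40418146, minus strand), CDC20 (chr1:43358731-43358980, plus strand) and CDKN1A (chr6:36678464-36678713, plus strand). Capitals mark CCAAT and TTTGAA on either strand in all 3, and GGGCGG in CDKN1A.
TOP2A: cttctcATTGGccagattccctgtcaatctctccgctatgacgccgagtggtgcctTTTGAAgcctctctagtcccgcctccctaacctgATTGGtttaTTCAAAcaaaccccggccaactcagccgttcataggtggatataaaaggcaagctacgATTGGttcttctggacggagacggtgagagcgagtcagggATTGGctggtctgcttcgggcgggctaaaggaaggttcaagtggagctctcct
CDC20: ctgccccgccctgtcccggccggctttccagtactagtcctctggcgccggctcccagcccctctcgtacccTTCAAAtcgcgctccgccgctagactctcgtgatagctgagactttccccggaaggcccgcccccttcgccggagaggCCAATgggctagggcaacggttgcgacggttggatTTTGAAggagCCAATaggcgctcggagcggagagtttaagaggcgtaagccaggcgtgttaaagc
CDKN1A: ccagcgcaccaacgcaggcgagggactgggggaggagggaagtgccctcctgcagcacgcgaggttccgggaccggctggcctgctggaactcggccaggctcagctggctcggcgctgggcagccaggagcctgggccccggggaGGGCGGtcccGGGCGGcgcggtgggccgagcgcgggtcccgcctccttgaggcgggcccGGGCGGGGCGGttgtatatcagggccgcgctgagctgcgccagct

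TOP2A held 4 CCAAT boxes (CCAAT) and 2 CHR matches (TTTGAA), and CDC20 held 2 of each, counted on both strands. In CDC20 a CHR match ended 60 bases before the start, with a CCAAT box at 55 to 51 bases. The CDKN1A window held neither motif and 4 GC boxes (GGGCGG), the last 2 of which share a base. GC boxes, not capitalised there, also lay in the TOP2A window at 36 to 31 bases before the start. In the CDC20 window they lay at 245 to 240 and 121 to 116 bases. Over the first listed start of each of 27305 genes, 9021 windows held CCAAT, while 13.6% held TTTGAA, 4.85% held both and 42.3% held GGGCGG. The 4 members in the promoter table were these 3 and GADD45B. In its window GADD45B had 2 CCAAT boxes and no CHR match. Neither the ER stress response element (ERSE) nor the letters TGATGCAAT of an ATF4-C/EBP site matched in any of the 4 windows, and these were in 0.0806% and 0.245% of all windows. Of the 29 genes of the G2 and mitosis list below that the table holds, 13 had both CCAAT and TTTGAA. Among these 13, 9 fell with thapsigargin and 10 with tunicamycin; among the other 16, 13 fell with each drug.

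TOP2A (topoisomerase II alpha; chromosome 17, 40388525 to 40417896) had log2 intensities of 10.84 and 10.76 with thapsigargin and 10.61 and 10.83 with tunicamycin, against 11.23 in DMSO. All 4 drug arrays lay below DMSO, with the drugs overlapping each other. It fell by 0.43 in log2 units with thapsigargin (SE 0.114, limma adjusted p = 0.0314), 1.34-fold. It fell by 0.51 with tunicamycin (SE 0.114, limma adjusted p = 0.0118), 1.42-fold. The thapsigargin call was the least secure among the members. Its adjusted p was 0.0685 without thapsigargin replicate 1, 0.115 without thapsigargin replicate 3 and 0.054 with no filter on detection. The DMSO arrays differed by 0.21 for TOP2A, and against the recovered DMSO array alone its changes were -0.64 with thapsigargin and -0.73 with tunicamycin.

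CDC20 (chromosome 1, 43358981 to 43363203) had log2 intensities of 10.91 and 10.84 with thapsigargin and 10.88 and 10.70 with tunicamycin, against 10.92 in DMSO. All 4 drug values lay below the DMSO value, the nearest by less than the gap between replicates of either drug. Its log2 change was -0.052 with thapsigargin, with a 95% interval from -0.30 to 0.20 (limma adjusted p = 0.76). With tunicamycin it was -0.13, with an interval from -0.38 to 0.12 (limma adjusted p = 0.377). Against the recovered DMSO array, which stood 0.16 above DMSO replicate 1, the changes were -0.21 and -0.29 in that order (limma adjusted p = 0.189 and 0.07). A modest fall of CDC20 was therefore not excluded by these arrays, and the intervals given are those against DMSO replicate 1.

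**Figure D2:**
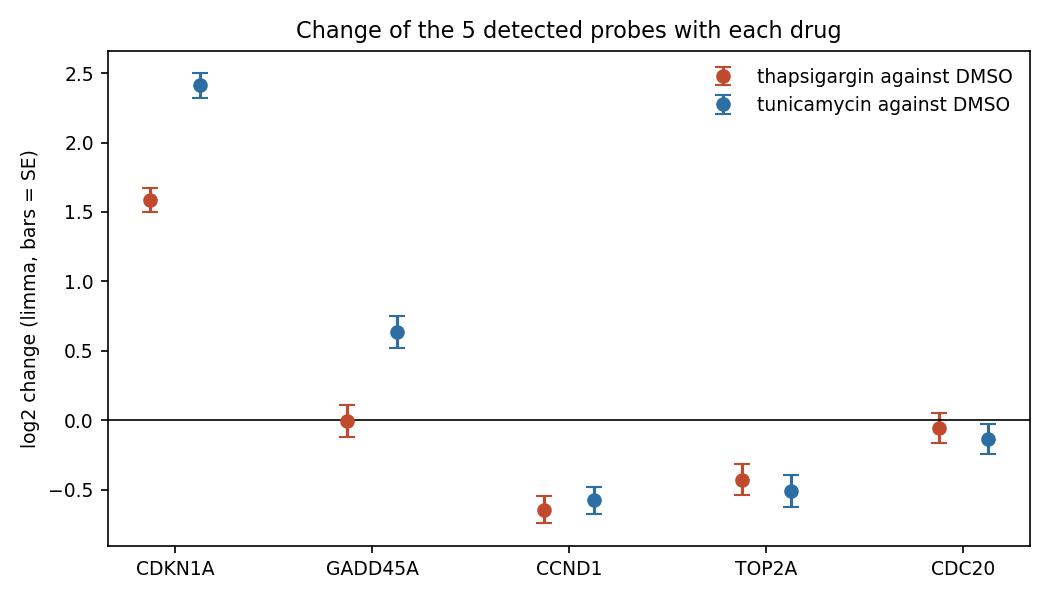
Log2 change against DMSO (y axis, limma; bars are SEs) of the 5 detected probes (x axis) with thapsigargin and with tunicamycin. CDKN1A rises by 1.59 and 2.41, CCND1 and TOP2A lie between -0.64 and -0.43, and GADD45A is near 0 with thapsigargin and at 0.64 with tunicamycin.

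The third comparison set thapsigargin against tunicamycin. CDKN1A and GADD45A differed between the drugs, both lower with thapsigargin, and 10.3% of all probes tested passed this test (4.67% higher with thapsigargin, 5.64% lower). CDKN1A was 1.77-fold lower with thapsigargin, or -0.82 ± 0.072 on the log2 scale (SE, limma adjusted p = 0.00143). GADD45A was 1.56-fold lower, or -0.64 ± 0.092 (SE, limma adjusted p = 0.00854). The GADD45A call was lost without thapsigargin replicate 1 (limma adjusted p = 0.0678) and without thapsigargin replicate 3 (0.0813), at log2 differences of -0.62 and -0.66. With the replicate number as a block on 6 arrays, the limma adjusted p-values were 0.0669 for CDKN1A and 0.126 for GADD45A. With both recovered arrays added, 1 tunicamycin array lay beside DMSO. The log2 differences were then -0.036 for CDKN1A and -0.44 for GADD45A, and neither passed. On the 5 arrays the other 3 detected members did not pass. Their log2 difference was -0.068 for CCND1 (95% interval -0.26 to 0.12), 0.084 for TOP2A (-0.13 to 0.30) and 0.080 for CDC20 (-0.12 to 0.28). For comparison, 9 of the 10 ER stress response genes were also lower with thapsigargin, with a median log2 difference of -0.85. This count was no firmer than the member calls. It ranged from 1 to 9 over 14 other settings, which leave out the fits with the recovered tunicamycin array or with all 9 columns. Of these 9 calls, that of DNAJB9 alone held with the replicate block.

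The genes that work beside these 6 were counted in lists by role, with 1 probe a gene. The counts stand against 12.2% of all probes higher and 13.3% lower with thapsigargin, and 17.2% higher and 18.8% lower with tunicamycin. With both recovered arrays added, every list count against DMSO was 0. Among the cyclins and kinases of G1, 4 of 7 tested genes fell with each drug, CCND1, CCNE1, CCNE2 and CDK2, and 1 rose, CDK6 with thapsigargin (0.37) and CCND3 with tunicamycin (0.32). The CDK6 call was lost without either thapsigargin array, against the recovered DMSO array alone and under median centring, and the CCND3 call was lost without either tunicamycin array, under median centring and with the replicate block. CDK2, the kinase partner of cyclins E and A, had log2 changes of -1.002 with thapsigargin and -0.91 with tunicamycin. CCNE2, a cyclin of the G1 to S transition, fell by 1.15 with thapsigargin and by 0.40 with tunicamycin, and this difference between drugs passed the test (limma adjusted p = 0.00663) but not without thapsigargin replicate 3 or with the replicate block. The CCNE2 fall with tunicamycin was lost without either tunicamycin array, with the replicate block and with no filter on detection. Of 5 CDK inhibitors tested, CDKN1A was the 1 that rose, and CDKN2D, an inhibitor of CDK4 and CDK6, changed by -0.64 with thapsigargin and -0.69 with tunicamycin. CDKN1B, the gene of p27, was at 0.26 and 0.29 in that order and was not called. The list median was 0.14 with thapsigargin and -0.031 with tunicamycin, against -0.0028 and -0.011 over all 12989 probes.

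Other growth arrest genes and p53 targets gave 4 rises and 3 falls among 12 tested genes with thapsigargin, and 9 rises and 1 fall with tunicamycin. Over the same 14 settings the rises ranged from 2 to 5 with thapsigargin and from 6 to 9 with tunicamycin. The falls ranged from 1 to 4 and from 1 to 2 in that order. Without thapsigargin replicate 3 the thapsigargin counts were 2 rises and 1 fall, and under median centring there were 2 rises. SESN2, a stress-induced sestrin that restrains mTORC1, was not well above background in DMSO; its rise was 3.78-fold or more with thapsigargin (adjusted p = 3.44e-05, limma) and 5.16-fold or more with tunicamycin (adjusted p = 8.62e-06, limma). SESN2 entered the tests only through the drug arrays, where it was higher, so those p-values add no independent support. ZMAT3, a p53-induced zinc finger protein, rose by 0.77 with thapsigargin and 1.23 with tunicamycin. TP53I3, a p53-induced oxidoreductase, fell instead, with changes of -0.63 and -1.14 in that order. The list therefore did not move in 1 direction, and its median was 0.079 with thapsigargin and 0.38 with tunicamycin. In the direct comparison 5 of the 12 were lower with thapsigargin, against 5.64% of all probes tested. This count ranged from 0 to 6 over the same 14 settings, and all 5 calls were lost with the replicate block. The 5 were led by PPM1D (-0.76), a phosphatase that dampens the p53 response, and PLK3, a stress-responsive kinase. PLK3 was detected on neither thapsigargin array nor on the DMSO array, and was at least 1.52-fold lower with thapsigargin than with tunicamycin (limma adjusted p = 0.00889), a call lost without either thapsigargin array and with the replicate block. PLK3 entered the tests only through the tunicamycin arrays, where it was highest, so its p-value adds no independent support. Its bound is taken from the mean of those arrays. TP53I3 was higher with thapsigargin than with tunicamycin (0.51), though not without thapsigargin replicate 3 or with the replicate block. The PPM1D call was also lost with the replicate block.

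On the driver side, most measured genes of the G2 and mitosis list fell. Of 36 G2 and mitosis genes tested, 26 fell with thapsigargin and 29 with tunicamycin, and none rose by limma with either drug; the medians were -0.55 and -0.64, and falls made up 13.3% and 18.8% of all probes tested. Over 14 other settings, which leave out the fits with the recovered tunicamycin array or with all 9 columns, the count of falls ranged from 22 to 31 with thapsigargin and from 28 to 32 with tunicamycin. CDK1, the kinase that drives entry into mitosis, changed by -1.07 with thapsigargin and -1.002 with tunicamycin. CCNF, a cyclin of an SCF ubiquitin ligase, changed by -0.996 with thapsigargin and -1.07 with tunicamycin. KIF20A, a kinesin of cytokinesis, was at -0.78 with thapsigargin and -1.25 with tunicamycin. CCNB1, the cyclin partner of CDK1, was at -0.91 with thapsigargin and -1.23 with tunicamycin, and all 4 genes passed the test with each drug. Within this list TOP2A was among the smaller falls, and CDC20 was 1 of 10 genes not called with thapsigargin and 1 of 7 not called with tunicamycin. PLK1, a mitotic kinase picked out after its values were seen, was also not called, at 0.063 with thapsigargin and 0.0083 with tunicamycin. In bulk RNA, fewer cells in a phase of the cycle and less RNA per cell cannot be told apart.

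**Figure D3:**
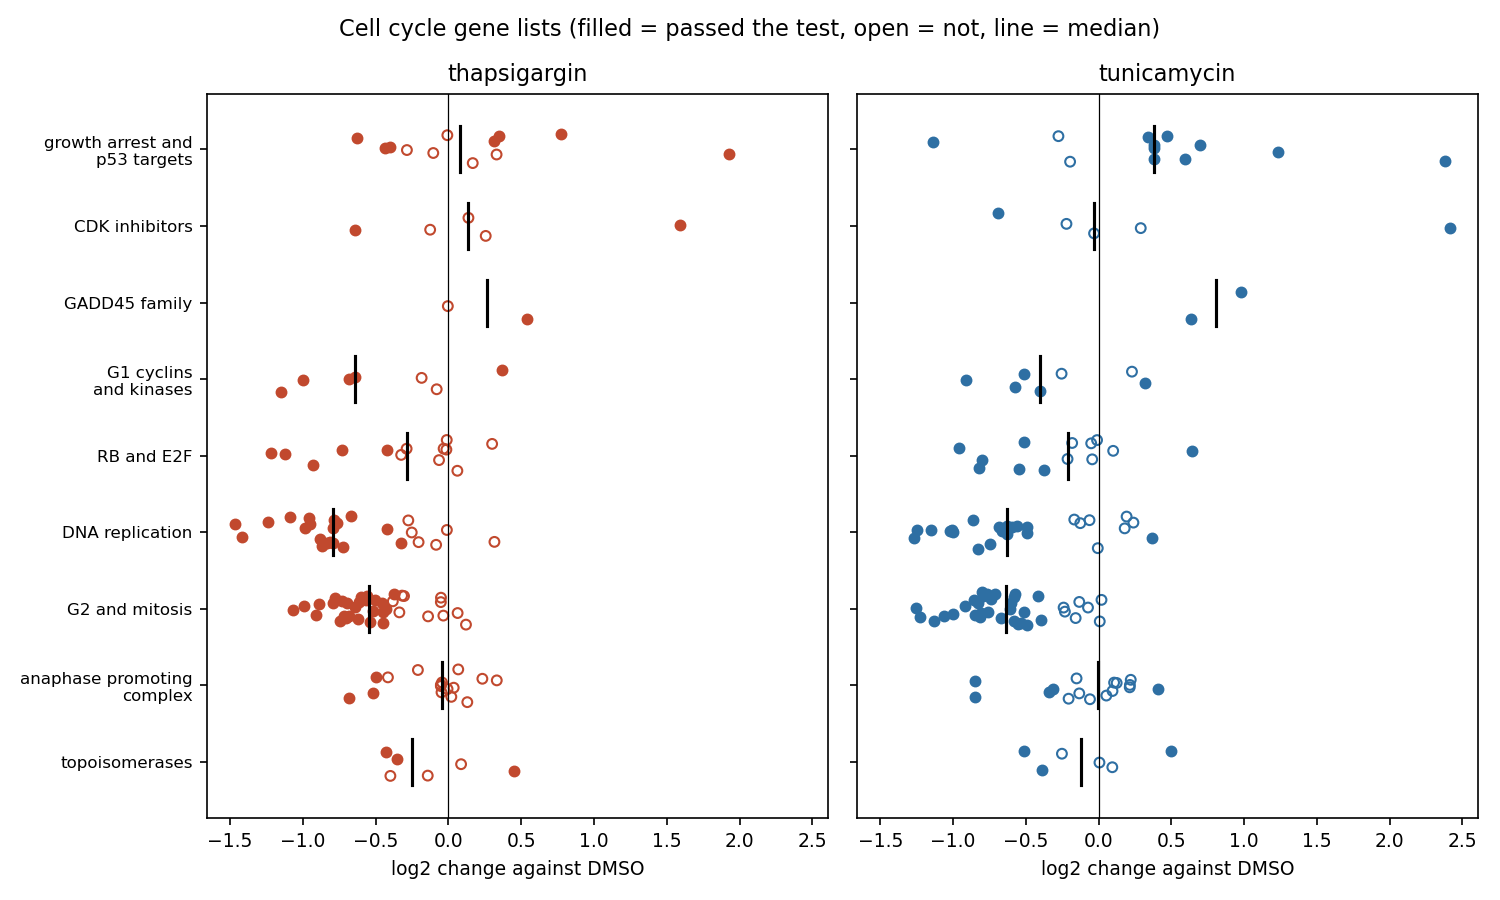
Log2 change against DMSO (x axis) of every tested gene of 9 cell cycle lists (rows) with thapsigargin and with tunicamycin; filled points passed the test, open points did not, and black lines are list medians. The DNA replication list has medians of -0.80 and -0.63, and the anaphase-promoting complex list lies around 0.

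DNA replication genes fell at 19 of 25 tested genes with thapsigargin and 17 with tunicamycin, with medians of -0.80 and -0.63; falls made up 13.3% and 18.8% of all probes tested. Over the same 14 settings the falls ranged from 16 to 22 with thapsigargin and from 16 to 18 with tunicamycin. MCM6, a subunit of the replicative helicase, changed by -1.46 with thapsigargin and -1.25 with tunicamycin. RRM2, a subunit of ribonucleotide reductase, fell too, with changes of -1.42 and -1.27 in that order. CDC6, which loads the helicase, was the 1 gene of the list that rose with tunicamycin (0.37), a call lost in 10 of 16 other settings, among them normexp, the authors' normalized values and the recovered DMSO array alone. It was detected on neither thapsigargin array and was at least 1.35-fold lower with thapsigargin than with tunicamycin (limma adjusted p = 0.0102), which was lost without thapsigargin replicate 3 and with the replicate block. Of 13 RB and E2F genes, 5 fell with thapsigargin and 6 with tunicamycin. The activator E2F2 changed by -1.12 with thapsigargin and -0.96 with tunicamycin, and the repressor E2F7 by -1.22 and -0.82, while RB1 rose with tunicamycin by 0.64.

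The partners of CDC20 and TOP2A changed less uniformly. In the anaphase-promoting complex list of 16 tested genes, 3 fell with thapsigargin and 4 with tunicamycin, shares near those of all probes that fell (13.3% and 18.8%), and the medians were -0.046 and -0.0028. CDC16, a subunit gene, was the 1 that rose with tunicamycin (0.41, limma adjusted p = 0.0107), and not under median centring or with the replicate block. UBE2C, the ubiquitin-conjugating enzyme of the complex, changed by -0.68 with thapsigargin and -0.85 with tunicamycin, and the subunit gene ANAPC11 by -0.52 and -0.85 in that order; the ANAPC11 call with thapsigargin was lost without thapsigargin replicate 1. FZR1, which encodes CDH1, the other activator of the complex, was at 0.020 with thapsigargin and 0.12 with tunicamycin and was not called. Of 6 topoisomerases, TOP2B fell beside TOP2A, at -0.35 with thapsigargin and -0.39 with tunicamycin, and the mitochondrial TOP1MT rose by 0.45 and 0.50. With thapsigargin the TOP2B call was lost without either thapsigargin array, and the TOP1MT call without thapsigargin replicate 1 and under median centring. With tunicamycin the TOP2B call was lost without tunicamycin replicate 1, and the TOP1MT call with the replicate block.

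The 2 probes of other genes most like each member were found by the root mean square difference of centred log2 values over the 5 arrays. For CDKN1A these were HSP90B1 (0.065), an ER chaperone, and PTPDC1 (0.071). They were STOX2 (0.063) and GALK2 (0.082) for GADD45A, GSS (0.018) and KLC1 (0.018) for CCND1, and MIEN1 (0.011) and MTCH1 (0.015) for CDC20. For TOP2A they were CENPI (0.021), a centromere protein, and NIN (0.031), a centrosome protein. HSP90B1 changed by 1.59 with thapsigargin and 2.30 with tunicamycin, close to the 1.59 and 2.41 of CDKN1A. With 5 arrays in 3 groups these distances largely compare the changes between groups.

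**Figure D4:**
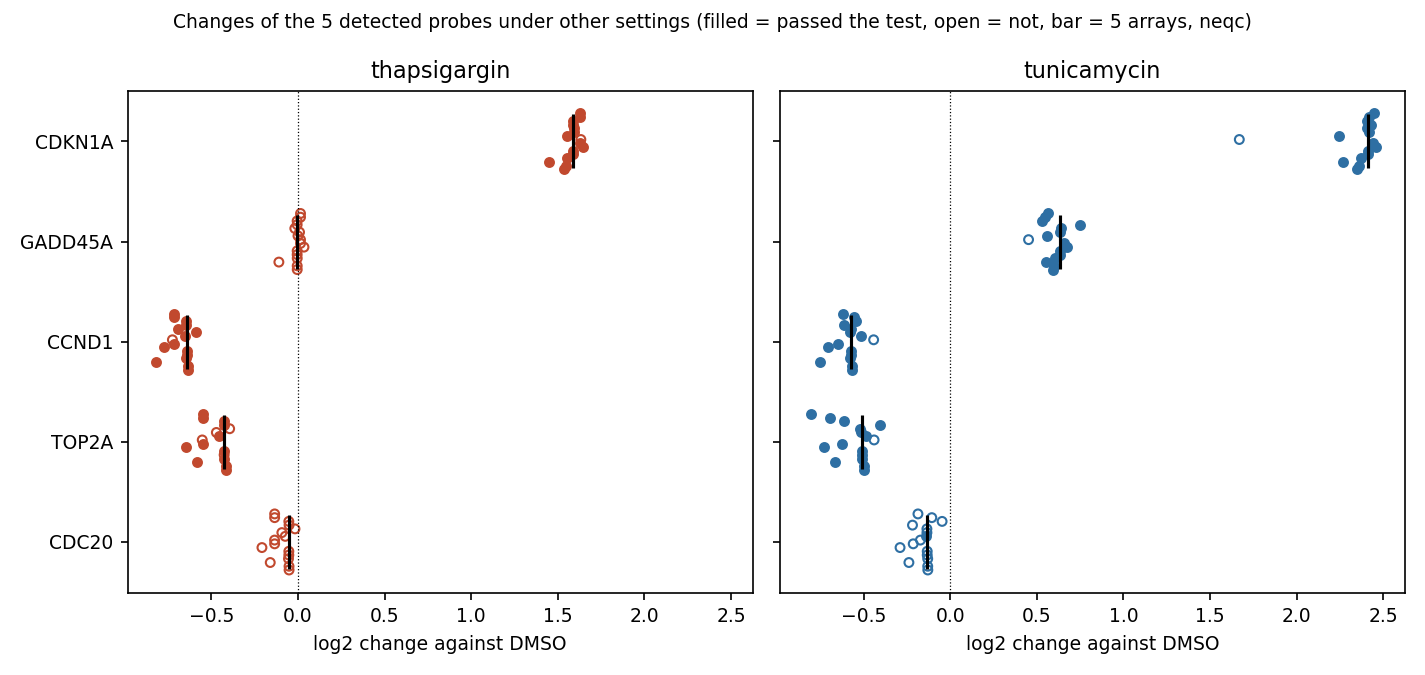
Log2 change against DMSO (x axis) of the 5 detected probes (rows) with thapsigargin and with tunicamycin under 16 other settings; filled points passed the test, open points did not, and black bars are the values from 5 arrays after neqc. With both drugs the points of CDKN1A stay above 1.4 and those of CCND1 and TOP2A stay below -0.39; the open CDKN1A point at 1.67 with tunicamycin is the fit with both recovered arrays.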

How the data were processed

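Biotin-labelled cRNA from SH-SY5Y cells was hybridised to 1-colour Illumina bead arrays, per the labels' protocols. The authors deposited intensity values, called non-normalized, with detection p-values per probe, and a second intensity table whose 9 sorted columns were identical, as after quantile normalization. No method, software or build for these steps is given in the sources used here. Signal columns were matched to the detection p-value column that ordered their probes without a break. The detection columns under DMSO replicate 2 and thapsigargin replicate 2 matched the signal of replicate 1 of those groups. The detection column under DMSO replicate 1 matched the signal of tunicamycin replicate 2, across groups, as did the column under tunicamycin replicate 2. The detection column under thapsigargin replicate 1 matched no signal. How these mismatches came about is not known.

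Intensities were corrected and normalized with neqc (offset 16) in limma 3.58.1 (R 4.3.3), probes detected on every array of at least 1 group were kept (12989), and lmFit with eBayes was run (prior 5.31 degrees of freedom, 2 residual), two-sided, at an adjusted p of 0.05. The procedure was tested on simulated data with 200 of 12989 probes changed, fewer than were called here. It then called 50.6% of the log2 changes of 1 and 1.5% of those of 0.5. The adjusted cutoff depends on how many probes change, so these rates need not hold for the comparisons here. Gene symbols came from the platform annotation (19715 probes with 1 gene, 0 with several, 2469 with none), updated to current RefSeq symbols. Members, lists, motifs and settings were chosen with earlier results of these data known. Named genes were the members, up to 2 risers and 2 fallers of each list per comparison, and the 2 nearest probes of each member; list members named beyond these were chosen after their values were seen. Figures were drawn with matplotlib 3.10.9.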

Additional observations from a re-analysis of the deposited data

Results flagged for a closer look

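The array recovered from tunicamycin replicate 3, which entered none of the main comparisons, was set against both DMSO arrays. After neqc of 7 arrays together, CDKN1A had a log2 intensity of 9.93 on it, against 9.85 on DMSO replicate 1 and 9.79 on the recovered DMSO array. It lay 0.0812 above the higher of these, more than the 0.059 between them. The other tunicamycin arrays were at 12.26 and 12.29. Before normalization the order was the other way round, with an intensity of 965 on that array, against 1061 and 1046 on the DMSO arrays, so the small excess depends on the normalization.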

How the results depend on the processing

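The signs of the called changes of CDKN1A, CCND1, TOP2A and GADD45A held in all 16 other settings. With both recovered arrays (7 arrays), 0 members were called in any comparison, and over all probes 5 were called with thapsigargin, 0 with tunicamycin and 8 between the drugs (2722, 1975 and 937 at an unadjusted p below 0.05). That fit places an array lying beside DMSO among the tunicamycin arrays, and its median residual SD was 0.136, against 0.0747. CDKN1A was then at 1.63 with thapsigargin and 1.67 with tunicamycin. With all 9 columns taken as independent the counts were 8105, 8542 and 5439, against 3323, 4681 and 1340, and CDC20 was called with tunicamycin at -0.14 (limma adjusted p = 0.0106). The count between the drugs was 2464 after normexp, 2347 if background stayed uncorrected, 2698 with trended robust variances and 2339 in the authors' normalized table; the cause was not tested. Without 1 drug array at a time, where fewer arrays are fitted, thapsigargin had 2093 to 3129 calls, tunicamycin 3598 to 4478 and the drugs differed at 180 to 534; 2 to 3 members were called with thapsigargin, 4 with tunicamycin and 1 to 2 between the drugs. A lone array was then assumed to vary like the others. The lowest counts between the drugs were 180 without thapsigargin replicate 3 and 294 without thapsigargin replicate 1.

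The replicate block could be fitted only on 6 arrays (with the recovered DMSO array). It called 25 probes and 0 members between the drugs, and changed no call of a member against DMSO. Whether replicate numbers pair the samples cannot be told from 2 pairs. Over these, 1 of which holds the recovered DMSO array, the deviations of DMSO and thapsigargin correlated at -0.168. Tunicamycin was not part of this check. A crossed replicate block, chosen after seeing the data, gave 5520, 5451 and 1150 calls. The precision is limited by 1 DMSO array, and GADD45B by its signal, which was not above background.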

Other observations

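Markers of the sympathetic neuroblast lineage were measured beside the cell cycle genes. Of 10 tested, 2 fell with thapsigargin and 6 with tunicamycin, and none rose by limma with either drug; of all probes, 13.3% and 18.8% fell. Over 14 other settings, which leave out the fits with the recovered tunicamycin array or with all 9 columns, the falls ranged from 1 to 3 with thapsigargin and from 3 to 7 with tunicamycin, and with both recovered arrays added they were 0. CHGA, the secretory granule protein chromogranin A, had log2 changes of -0.67 for thapsigargin and -1.42 for tunicamycin, and the difference between the drugs passed the test (limma adjusted p = 0.00215), though not with the replicate block. DBH, the enzyme that makes noradrenaline, was at -0.41 and -0.51 in that order, and both passed the test, the change with thapsigargin not without thapsigargin replicate 3. TH, the rate-limiting enzyme of catecholamine synthesis, was at 0.11 and 0.16 and was not called.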
